A study of Mus musculus with 9 samples.

Results

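T cells of the invariant natural killer (iNKT) type recognise lipids on CD1d through a receptor with a fixed alpha chain, and they mature into subsets that resemble innate helper cells. The genes described here are 7 transcription factors that set T cell and iNKT cell lineages: Tbx21, Eomes, Gata3, Zbtb16, Zbtb7b, Runx1 and Runx3. They were taken by name from a list, and all 7 were found by Ensembl identifier among the 14004 genes of the deposited table. RNA-seq was done on iNKT1 cells from thymus, liver and spleen, with 3 libraries per tissue and 9 in all. Every group had the same strain (C57BL/6), the same genotype (Tbx21CreTg;Rosa26-LSL-YFP+/+) and no treatment, and the mice's age is not given in the labels. In such mice a Cre transgene driven by Tbx21 switches on a yellow fluorescent protein for good in any cell in which the transgene was active and in its descendants. Tbx21 is thus both 1 of the genes measured and the gene behind the marker, and all 3 groups share that. The series' design text calls the replicates independent but does not say whether a replicate is 1 mouse or a pool, so p-values measure the spread between these samples.

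In T cells these factors work as opposed or cooperating pairs. T-bet, encoded by Tbx21, and its T-box relative Eomes drive type 1 effector genes and the cytokine receptor chain that natural killer and iNKT1 cells share. GATA3 drives type 2 cytokines and CD4 T cell development. PLZF, encoded by Zbtb16, gives iNKT cells their innate-like effector program early in the thymus. ThPOK, encoded by Zbtb7b, commits thymocytes to the CD4 lineage and is expressed by most mouse iNKT cells. RUNX3 silences Cd4 and supports CD8 and cytotoxic genes, while RUNX1 acts earlier in thymocytes and is needed for iNKT cells to develop. Both RUNX proteins bind the same DNA letters together with CBFβ.

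The RUNX pair is introduced first by sequence, because 1 promoter of each gene holds a feature that the list did not use. RefSeq promoters (mouse build GRCm38.p6, 250 bases before to 50 bases after a start site) were matched by symbol to 6 of the 7 genes, 9 promoters in all. The RUNX letters TGTGGT, read on either strand (ACCACA on the other), were in 3 of these 9 promoters, against 16.8% of all 32851 promoters of the same length. A spaced pair, 2 copies of ACCACA with 2 bases between them on either strand, was looked for after the Runx1 and Runx3 windows had been seen. It was in 7 of the 32851 promoters (0.021%), among them those of Runx1 and Runx3 and that of their paralog Runx2; a further 1, Gm16225, lies on the opposite strand of the Runx3 window and holds the same bases. The remaining 3 were those of Gm12236, Gm15462 and Olfr24. Capitals mark the RUNX letters in these windows of 30 bases, written on each gene's own strand, with Zbtb7b as the gene with a single match:
Runx3, chr4:135120503-135120532, plus strand: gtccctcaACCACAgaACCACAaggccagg
Runx1, chr16:92826025-92826054, minus strand: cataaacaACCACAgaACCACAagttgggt
Zbtb7b, chr3:89387743-89387772, minus strand: ctggcgaggaacTGTGGTatgtgagtgggt
In Runx3 the matches begin 134 and 126 bases before the start site. In Runx1 they begin 28 and 36 bases after it, and in Zbtb7b the match begins 89 bases before it. Each of these 3 genes has 2 promoters in the table, and its other promoter held no RUNX match. The T-box letters GGTGTGA were in 0 of the 9 promoters and 4.0% of all. The GATA letters AGATAA and TGATAA were each in 0 of the 9, against 11.2% and 9.1% of all. Each of these was read on both strands, and AGATAA and TGATAA share their last letters. A match is a description of letters, not a site of binding.

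Values are the authors' normalised read counts. Reads recovered from them came to 3880153 in liver replicate 3 and to 18506598 to 39568081 in the other 8 libraries, so 1 read was worth 6.033 in liver replicate 3 and 0.6001 to 1.2521 elsewhere. T cell markers (9 of 9 with reads, Cd3e and Trac among them) summed to 87821 to 119691 in every library, and iNKT1 markers (8 of 8) to 72622 to 119967. The iNKT1 list holds Tbx21 itself, and its other genes are all among the type 1 genes described below. Il2rb is its largest gene in every library, so the sum is not a separate check of those genes. Hepatocyte genes summed to 1466 to 1811 in the liver libraries and to at most 269.6 in any other. B cell genes summed to 3157 to 13086, with Ighm the largest in every library. Myeloid genes summed to 3270 in spleen replicate 1 (Csf1r at 1297) and to at most 563.6 elsewhere, and that library also held the most Cd22, Cd79a and Cd79b. Thymus replicate 3 stood apart in immature thymocyte genes (Rag1 and others), at 740.7 against at most 66.2 in any other library. The 3 libraries numbered 2, 1 in each tissue, had high Xist and few Y-linked reads, so that feature is spread evenly over tissues. The column read as thymus replicate 2 has a prefix with 1 letter more than the other 8, which the labels do not explain; it holds the highest Tbx21, Gata3, Zbtb7b and Runx3 values of the 9. In bulk RNA, fewer cells of a type and less RNA per cell cannot be told apart.

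None of the 7 factors passed the test in any comparison of tissues, by limma-trend on log2(value + 1) over 13309 genes with Benjamini-Hochberg adjustment and a threshold of 0.05. Liver and thymus differed in 0.323% of all genes by that rule, spleen and thymus in 0.398%, liver and spleen in 0.015%, and any tissue by the F-test in 0.346%, so few genes passed at all. Those counts moved with single libraries. Liver vs thymus had 43 genes, 8 or 9 without any 1 liver library, 25 or 28 without any 1 spleen library and 151 without thymus replicate 3. Spleen vs thymus had 53, 9 to 14 without any 1 spleen library, 32 without liver replicate 1 and 140 without thymus replicate 3. Liver vs spleen had 2, and 0 without liver replicate 1 or 3. The factors called stayed at 0 in each of these fits. At an unadjusted p under 0.05 the 7 factors numbered 2 (liver vs thymus), 2 (spleen vs thymus) and 0 (liver vs spleen), against 11.6%, 11.7% and 3.03% of all genes. Those 2 were Runx1 and Runx3 both times, and the comparisons share the thymus libraries. By the F-test 1 factor, Runx1, had an unadjusted p under 0.05 (adjusted p = 0.468 by limma), against 9.95% of all genes. With edgeR's quasi-likelihood test or DESeq2 on recovered reads, the count of factors called was also 0 in all 3 comparisons. Fold changes below are on the log2(value + 1) scale with a 95% confidence interval. The median fold change of all genes was 0.29 for liver vs thymus, 0.33 for spleen vs thymus and -0.02 for liver vs spleen, and values relative to that median are given where they bear on a direction.

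**Figure D1:**
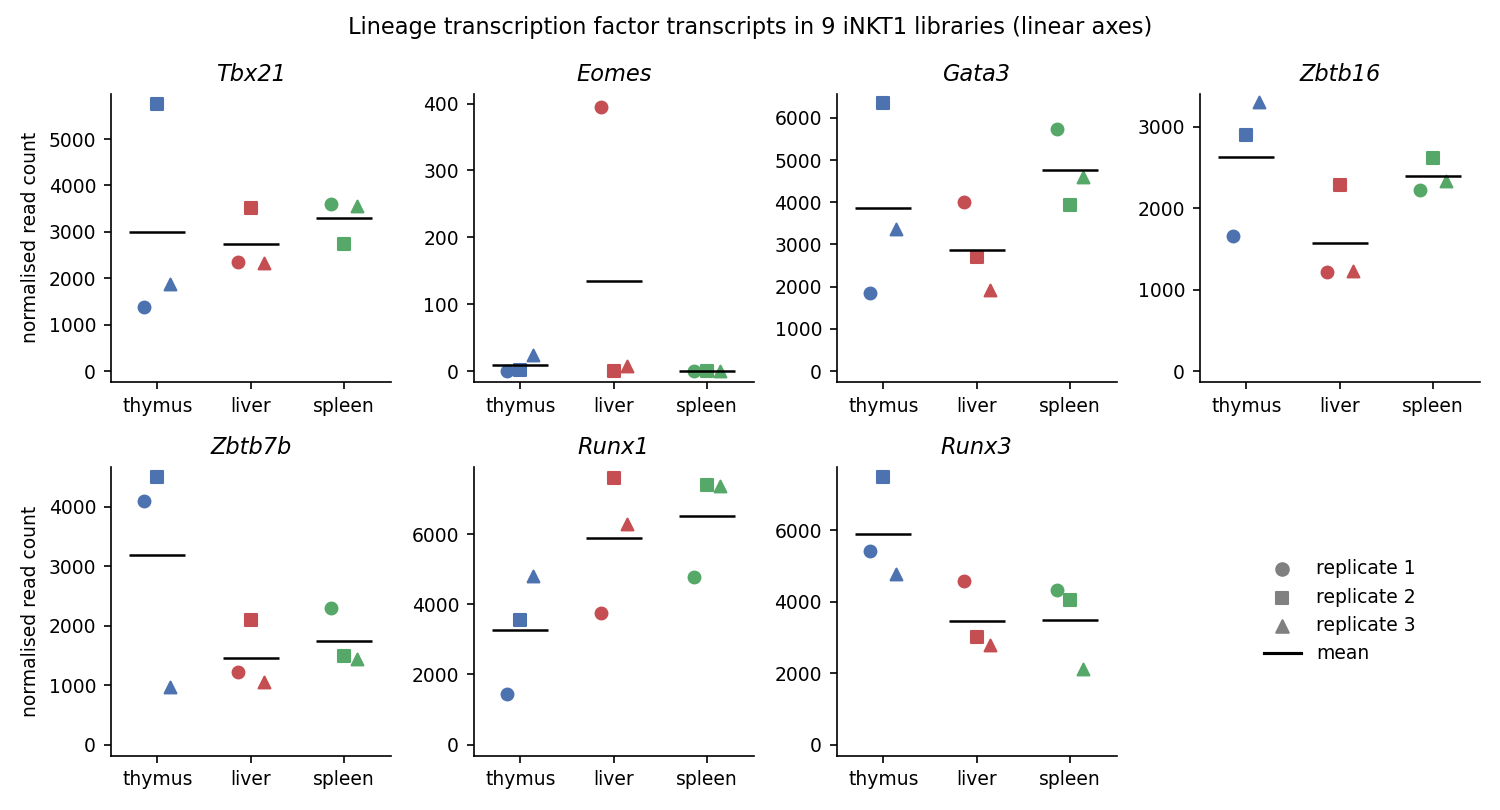
Normalised read count (linear axis) of each factor by tissue, 1 panel per gene; symbols are replicates 1 to 3 and bars are the mean. The Runx3 values of thymus lie above all 6 others, Eomes is high in liver replicate 1 only, and the thymus values of Tbx21, Gata3 and Zbtb7b are the most spread.

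Runx1 (chromosome 16, 92601466-92826149, minus strand, build mm10) had its lowest values in thymus. Normalised read counts were 1444, 3560.5 and 4813 in thymus, 3763, 7607 and 6299 in liver, and 4782, 7391 and 7373 in spleen. Thymus replicate 1 was the lowest of the 9, and thymus replicate 3 lay above the lowest liver and the lowest spleen library, so the tissues overlapped. The mean was 3273 ± 1703 (SD, n = 3) in thymus, 5889 ± 1954 in liver and 6515 ± 1501 in spleen. On the log2 scale the fold change was 0.95 (0.05 to 1.85) for liver vs thymus and 1.13 (0.23 to 2.03) for spleen vs thymus. Adjusted p was 0.403 and 0.311 by limma, and relative to the median of all genes the changes were 0.66 and 0.81. Both intervals include that median (0.29 and 0.33). Without thymus replicate 1 the fold changes were 0.45 and 0.63, less than the values over all libraries by more than 1.5 times.

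Runx3 (chromosome 4, 135120652-135177990, plus strand) had the opposite order. Its normalised read counts were 5420.2, 7502 and 4771 in thymus, 4578, 3009 and 2775 in liver, and 4335, 4040.5 and 2123 in spleen. Every thymus library was above every liver and spleen library, and liver and spleen overlapped throughout. Among all genes, 15.3% had 3 values that did not overlap between liver and thymus, and 15.3% between spleen and thymus, so such a separation is common here. Means were 5898 ± 1427 (SD, n = 3) in thymus, 3454 ± 980.3 in liver and 3499 ± 1201 in spleen. On the log2 scale the fold change was -0.78 (-1.55 to -0.01) for liver vs thymus and -0.79 (-1.57 to -0.02) for spleen vs thymus. Adjusted p was 0.422 and 0.412 by limma, and relative to the median of all genes the changes were -1.08 and -1.12. Without spleen replicate 3 the spleen vs thymus value was -0.47. For liver vs spleen the value was 0.01 (-0.76 to 0.78), with the sign not kept under other settings.

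**Figure D2:**
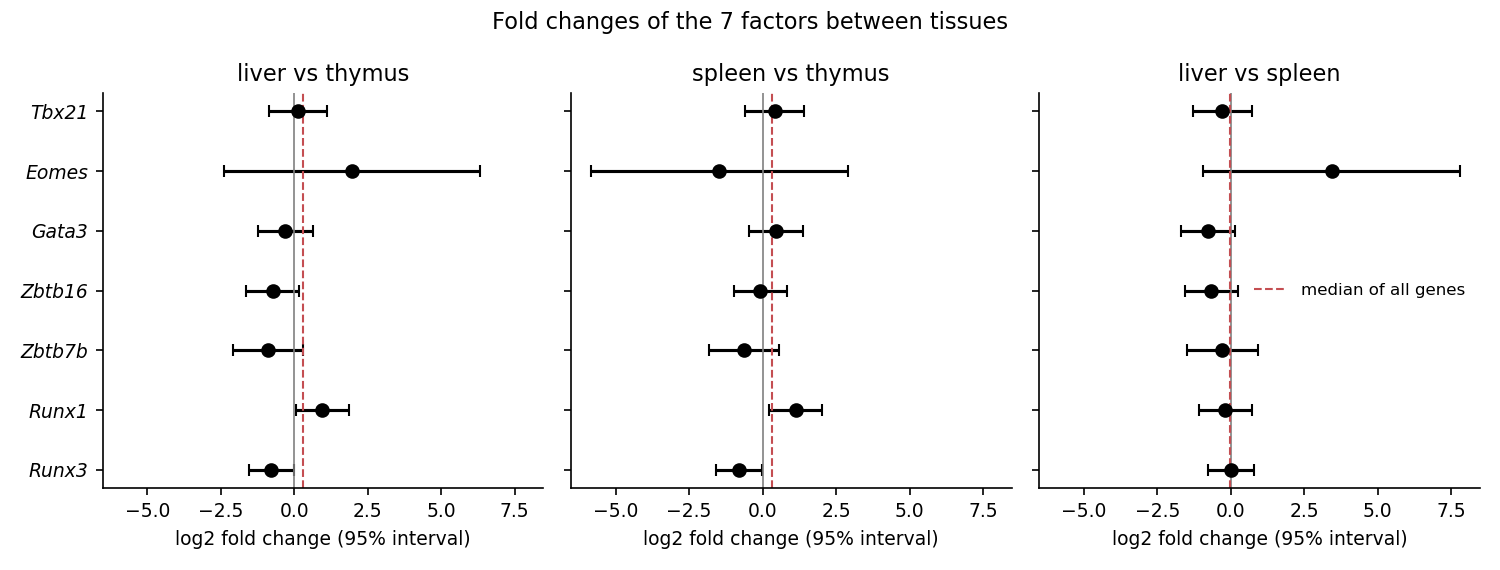
Log2 fold change of each factor (points) with its 95% confidence interval (bars) in the 3 comparisons; the dashed line is the median of all genes tested. The intervals of Runx1 and Runx3 lie just beyond 0 in both comparisons with thymus and on opposite sides, and the Eomes interval is the widest. In the comparisons with thymus the Runx1 intervals include the dashed line, and the Runx3 intervals lie below it.

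The ratio of Runx3 to Runx1 within a library does not depend on how libraries were scaled. It was 3.752, 2.107 and 0.991 in thymus, 1.217, 0.396 and 0.441 in liver, and 0.907, 0.547 and 0.288 in spleen. Thymus replicates 1 and 2 lay above every liver and spleen library, while thymus replicate 3 lay below liver replicate 1. The ratio is not corrected for the genes' lengths, so only its differences between libraries are read. The mean log2 ratio was 0.99 ± 0.96 (SD, n = 3) in thymus, -0.75 ± 0.89 in liver and -0.94 ± 0.83 in spleen. Tissue held 58.3% of its sum of squares, which a one-sided exact permutation test over all 280 partitions of the libraries gave p = 0.0929, or 0.464 after Benjamini-Hochberg adjustment over the 5 ratios tested. The smallest p this design allows is 0.00357.

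The other 4 ratios pair T-bet with its relative or rivals and Runx3 with ThPOK. Tbx21 to Zbtb16 was 0.834, 1.983 and 0.565 in thymus, 1.934, 1.535 and 1.885 in liver, and 1.62, 1.043 and 1.522 in spleen. The liver libraries lay close together and the thymus libraries on both sides of them. Tissue held 35.6% of the sum of squares of that log2 ratio (adjusted p = 0.536, exact permutation test), 83.4% without thymus replicate 2 (adjusted p = 0.071, exact permutation test) and 23.1% without thymus replicate 3. Tbx21 to Gata3 was 0.556 to 0.907 in thymus, 0.589 to 1.3 in liver and 0.627 to 0.776 in spleen, with 27.8% between tissues (adjusted p = 0.536, exact permutation test), 76.8% without liver replicate 1, and 10.4% and 12.9% without liver replicates 2 and 3. Runx3 to Zbtb7b ran from 1.325 to 4.926, both in thymus, and tissue held 3.8% of its sum of squares (adjusted p = 0.896, exact permutation test), or 0.8% to 29.4% with 1 library left out, the most without thymus replicate 3. Tbx21 to Eomes was 5.939 in liver replicate 1 and 75.1 in thymus replicate 3. The other 7 libraries had at most 1 Eomes read, which in liver replicate 3 was a value of 7.19. A single read or the 1 added to each value thus sets their ratio and the 26.4% between tissues (57.7% without liver replicate 2), and nothing is read from them.

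**Figure D3:**
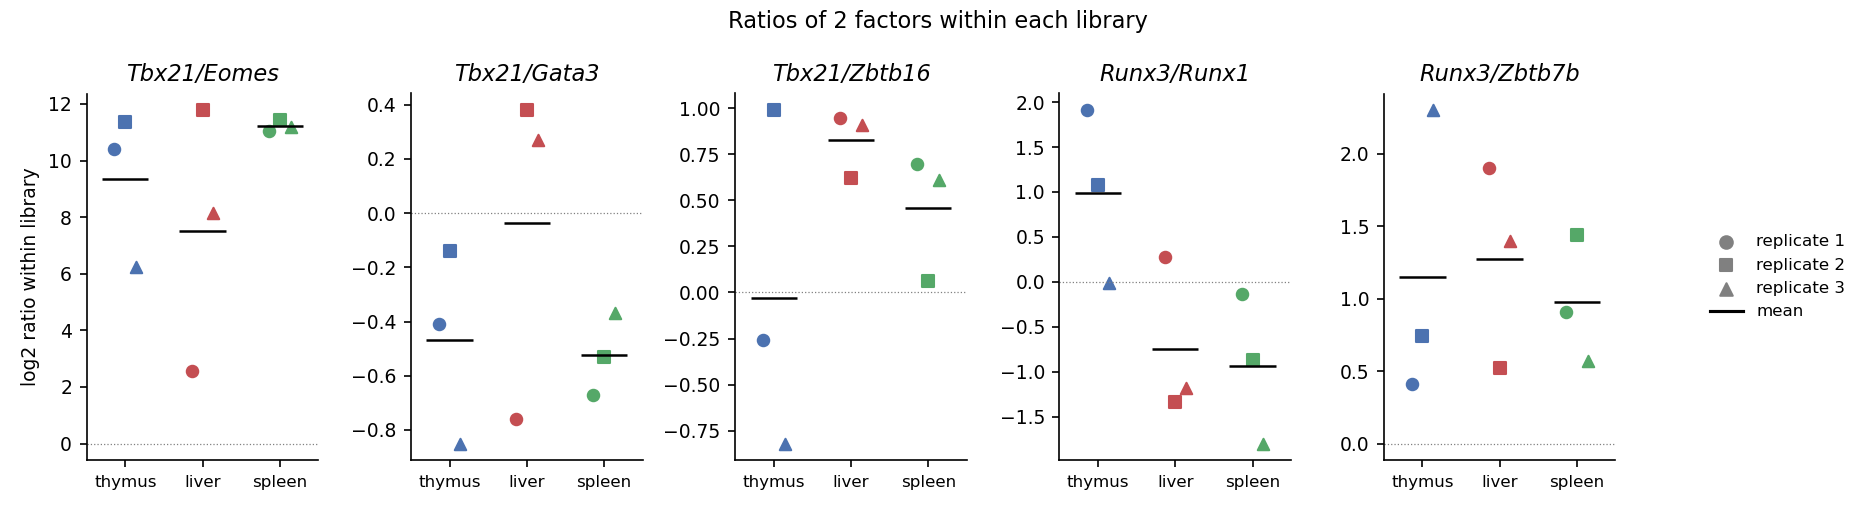
Log2 ratio of 2 factors within each library, by tissue, 1 panel per ratio; symbols are replicates 1 to 3, bars are the mean and the dotted line is equal normalised counts. Runx3 to Runx1 has the largest share between tissues, 58.3%, with thymus replicate 3 among the liver and spleen values. In the Tbx21/Eomes panel only liver replicate 1 and thymus replicate 3 have more than 1 Eomes read.

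Tbx21 (chromosome 11, 97098071-97115331, minus strand), the factor that defines iNKT1 cells, was present in every library. Normalised read counts were 1386, 5762 and 1868 in thymus, 2353, 3513 and 2321 in liver, and 3600.1, 2733 and 3560.1 in spleen. Both the highest and the lowest value of the 9 were thymus libraries, and liver and spleen lay between them. Log2 fold changes were 0.12 (-0.88 to 1.12) for liver vs thymus, 0.41 (-0.59 to 1.41) for spleen vs thymus and -0.29 (-1.29 to 0.71) for liver vs spleen. The first of these was -0.16 with trimmed-mean scaling factors, and it is -0.17 relative to the median of all genes, so it has no stable direction. Without thymus replicate 1 the comparisons with thymus gave -0.29 and 0, and without thymus replicate 2 they gave 0.73 and 1.02. Adjusted p was 0.946, 0.768 and 1 by limma.

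Eomes (chromosome 9, 118478212-118486132, plus strand) was nearly all in 1 library. Recovered reads were 0, 1 and 19 in thymus, 454, 0 and 1 in liver, and 1, 0 and 1 in spleen. Liver replicate 1 alone held a level of 395.4, thymus replicate 3 held 23.9, and the other 7 libraries had at most 1 read. A count of 0 allows up to 3 reads, a normalised count of 3.36 in thymus replicate 1, 2.58 in liver replicate 2 and 2.07 in spleen replicate 2 (counting error only). The fitted log2 fold changes were 1.96 (-2.4 to 6.32) for liver vs thymus, -1.47 (-5.84 to 2.89) for spleen vs thymus and 3.43 (-0.93 to 7.79) for liver vs spleen. These depend on the 1 added before the log, and adjusted p was 0.741, 0.813 and 1 by limma. Without liver replicate 1 the liver vs thymus value was -0.42 and the liver vs spleen value 1.06, without liver replicate 2 they were 3.9 and 5.38, and without thymus replicate 3 the spleen vs thymus value was -0.12 and the liver vs thymus value 3.31.

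Liver replicate 1 also held the most Cd8a and Ncr1, which mark CD8 T cells and natural killer cells, both known to express Eomes. Cd8a was 1116.5 there, 145.9 and 85.8 in the other liver libraries, 256.9 in thymus replicate 3 and without a read in the other 5. Ncr1, the gene of the receptor NKp46, was 615.6 in liver replicate 1, 13.7 and 131.4 in the other liver libraries, without a read in thymus, and at most 35.9 in spleen. The summed natural killer list (7 of 7 genes with reads) was 6275 to 9663 in thymus, 1151 to 4122 in liver and 708.8 to 2373 in spleen. Of that list only Ncr1 was highest in liver replicate 1. Its Fcer1g, Klra4, Klra7, Klra8 and Klri2 were each highest in a thymus library, and Tyrobp in spleen replicate 1. Summed Cd8a and Cd8b1 were 0.1 to 285.8 in thymus, 86.6 to 1157 in liver and 0 to 25.7 in spleen. The part of other cells in the Eomes reads was not tested.

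**Figure D4:**
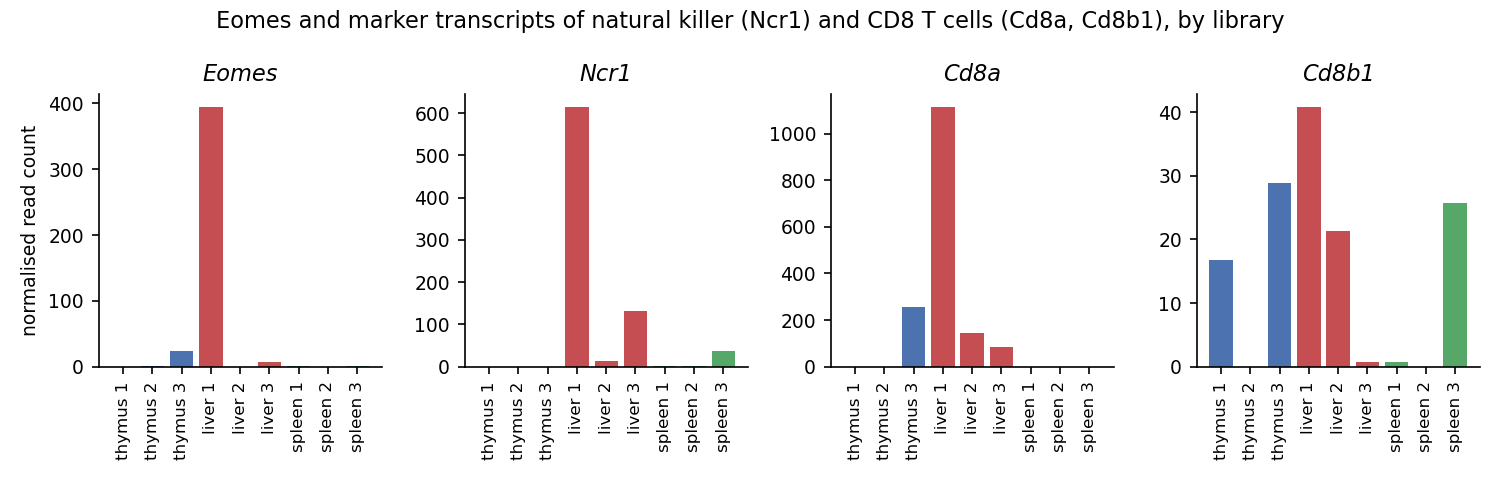
Normalised read count (linear axes from 0, a different scale per panel) of Eomes, Ncr1, Cd8a and Cd8b1 in each of the 9 libraries; colours are tissues and each bar is 1 library. Liver replicate 1 has the highest bar in all 4 panels, 395.4 for Eomes and 1116.5 for Cd8a. The other genes of the natural killer list, not shown, are highest in thymus or spleen libraries.

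Gata3 (chromosome 2, 9857078-9890034, minus strand) had its tightest values in spleen. Normalised read counts were 1846, 6351 and 3358 in thymus, 3997, 2703 and 1921 in liver, and 5741, 3940.05 and 4589 in spleen. The thymus libraries again spanned all the others, while 1 liver library lay among the spleen values and the other 2 below them. Liver vs spleen had a log2 fold change of -0.77 (-1.7 to 0.15), liver vs thymus of -0.31 (-1.23 to 0.62) and spleen vs thymus of 0.47 (-0.46 to 1.39). Adjusted p was 1, 0.814 and 0.704 by limma. Liver vs thymus and spleen vs thymus were -0.75 and 0.03 without thymus replicate 1, and 0.14 and 0.92 without thymus replicate 2. An annotated gene on the opposite strand, Gm13256, shares exon sequence with Gata3, and whether the authors counted by strand is not given in the sources used here. Another, 9230102O04Rik, shares exon sequence with Gata3 on the same strand. Runx1 shares exon sequence with Gm26626 and Eomes with Gm33460, both on the opposite strand.

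Zbtb16 (chromosome 9, 48654297-48836222, minus strand) was detected in all 9 libraries. Normalised read counts were 1661, 2905 and 3305 in thymus, 1216, 2288 and 1230.5 in liver, and 2222, 2621 and 2339 in spleen. Liver replicates 1 and 3 were the lowest of the 9, and the spleen libraries were the closest to each other, at 2394 ± 205 (SD, n = 3). Log2 fold changes were -0.74 (-1.64 to 0.16) for liver vs thymus, -0.08 (-0.98 to 0.82) for spleen vs thymus and -0.66 (-1.56 to 0.24) for liver vs spleen. Adjusted p was 0.509, 0.966 and 1 by limma.

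Zbtb7b (chromosome 3, 89377644-89394776, minus strand) was highest and lowest in thymus. Its normalised read counts were 4089, 4489 and 967.7 in thymus, 1226, 2098 and 1049 in liver, and 2301, 1486 and 1431 in spleen. Thymus replicates 1 and 2 lay above all liver and spleen libraries and thymus replicate 3 below all of them. Log2 fold changes were -0.91 (-2.1 to 0.29) for liver vs thymus, -0.62 (-1.81 to 0.57) for spleen vs thymus and -0.29 (-1.48 to 0.91) for liver vs spleen. Adjusted p was 0.541, 0.693 and 1 by limma. Without thymus replicate 3 the comparisons with thymus gave -1.62 and -1.33 (adjusted p = 0.0962 and 0.153 by limma). Without thymus replicate 1 they gave -0.58 and -0.3, and without thymus replicate 2 -0.52 and -0.23. Thymus replicate 3 is the library with the most immature thymocyte transcripts, Rag1 at 486.2 and Arpp21 at 153.0, and their part in its Zbtb7b value was not tested. Gm15417 on the opposite strand shares exon sequence with Zbtb7b.

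Per kilobase of exon, the mean over 9 libraries was 1210.02 for Tbx21, 962.1 for Gata3, 856.2 for Runx3, 434.6 for Runx1, 416.2 for Zbtb16, 380.3 for Zbtb7b and 11.5 for Eomes. Neighbours in this order overlapped except at its end. Tbx21 was above Gata3 in 7 of 9 libraries, Gata3 above Runx3 in 6, Runx3 above Runx1 in 7, Runx1 above Zbtb16 in 5 and Zbtb16 above Zbtb7b in 7. Zbtb7b was above Eomes in 9 of 9. Runx1 has the longest summed exons of the 7, 12025 bases, and has the highest mean normalised count. The place of its mean per kilobase differed by tissue, but single libraries went the other way. In thymus its mean was 272.2, below Zbtb16 (496.7) and Zbtb7b (569.1). In liver it was 489.8, above Zbtb16 (298.7) and Zbtb7b (260.7), and in spleen 541.8, above Zbtb16 (453.1) and Zbtb7b (311.1). In thymus replicate 3, however, Runx1 (400.28) was above Zbtb7b (173.09). In spleen replicate 1 Runx1 (397.65) was below Zbtb16 (420.52) and Zbtb7b (411.5).

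Spread between replicates differed by gene. The residual SD on the log2 scale, after removing tissue means, was 0.434 for Zbtb16, 0.442 for Runx3, 0.619 for Gata3, 0.639 for Runx1, 0.669 for Tbx21, 0.808 for Zbtb7b and 2.894 for Eomes. The median of the 3887 genes with a mean of at least 1000 was 0.555. Zbtb16 and Runx3 were thus steadier than most such genes, and Tbx21, Runx1, Gata3 and Zbtb7b less steady.

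Among the type 1 genes linked to T-bet and Eomes, 4 passed the test in at least 1 comparison. Of 18 genes listed, 17 were tested. Liver vs thymus had 0 higher and 2 lower, spleen vs thymus 0 higher and 3 lower, and liver vs spleen 1 higher and 0 lower. At an unadjusted p under 0.05 by limma there were 8, 8 and 3 of the 17, against 11.6%, 11.7% and 3.03% of all genes. Medians were -0.08, -0.47 and 0.26, beside 0.29, 0.33 and -0.02 for all genes. Klrd1, which encodes the CD94 receptor chain, had 17224, 13285 and 20458 in thymus, 4044, 2565 and 3447 in liver, and 2785, 3419.9 and 2173 in spleen. Its change was -2.34 for liver vs thymus and -2.61 for spleen vs thymus on the log2 scale (adjusted p = 0.00355 and 0.000783 by limma), and it passed in both. Klrk1, the gene of the activating receptor NKG2D, had 14029, 15445 and 11780.0 in thymus, 5394, 4639.6 and 2932 in liver, and 5771, 6279 and 3475 in spleen. Klrk1 fell by 1.71 in liver (adjusted p = 0.0267 by limma), and was -1.45 in spleen (adjusted p = 0.0625).

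The granzymes Gzma and Gzmb are proteases of cytotoxic granules. Gzmb was 14109 to 17618 in thymus, 5937 to 10279 in liver and 477.1 to 1395 in spleen, with no overlap between any of the tissues. It fell by 4.5 in spleen vs thymus (adjusted p = 6.46e-05 by limma) and was higher by 3.51 in liver than in spleen (adjusted p = 0.00297). Gzma was 3087 to 7043 in thymus, 322.7 to 3351 in liver and 166.0 to 680.6 in spleen, and fell by 3.98 in spleen vs thymus (adjusted p = 0.0412 by limma). The call for Gzma was lost without any 1 thymus or spleen library or liver replicate 3 (adjusted p = 0.0504 to 0.193), with edgeR (adjusted p = 0.13) and with no filter (adjusted p = 0.0604). That for Klrk1 in liver vs thymus was lost without any 1 liver library, thymus replicate 1 or 2 or spleen replicate 1 or 2 (adjusted p = 0.0507 to 0.183), with edgeR (adjusted p = 0.0612) and in a limma fit of the 6 compared samples alone (adjusted p = 0.0679). That for Gzmb in liver vs spleen was lost without liver replicate 1 (adjusted p = 0.0645) or 3 (adjusted p = 0.0507). The summed natural killer list was also lower outside the thymus, at 1151 to 4122 in liver and 708.8 to 2373 in spleen against 6275 to 9663 in thymus. Fcer1g was its largest gene in each thymus library. Not all of its genes were lower, as Ncr1 had no read in thymus. Tyrobp was 2.6 to 229.8 in thymus, 170.0 to 396.8 in liver and 156.5 to 1068.9 in spleen. The part of the natural killer list in these changes was not tested. The remaining 13 type 1 genes did not pass in any comparison; Il2rb, the receptor chain that T-bet and Eomes are known to drive, was 36385 to 40797 in thymus, 61549 to 71230 in liver and 34858 to 51548 in spleen. Ifng, the signature cytokine of the type 1 program, was 24.3 to 2696 in thymus, 1282 to 2271 in liver and 1328 to 3029 in spleen.

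**Figure D5:**
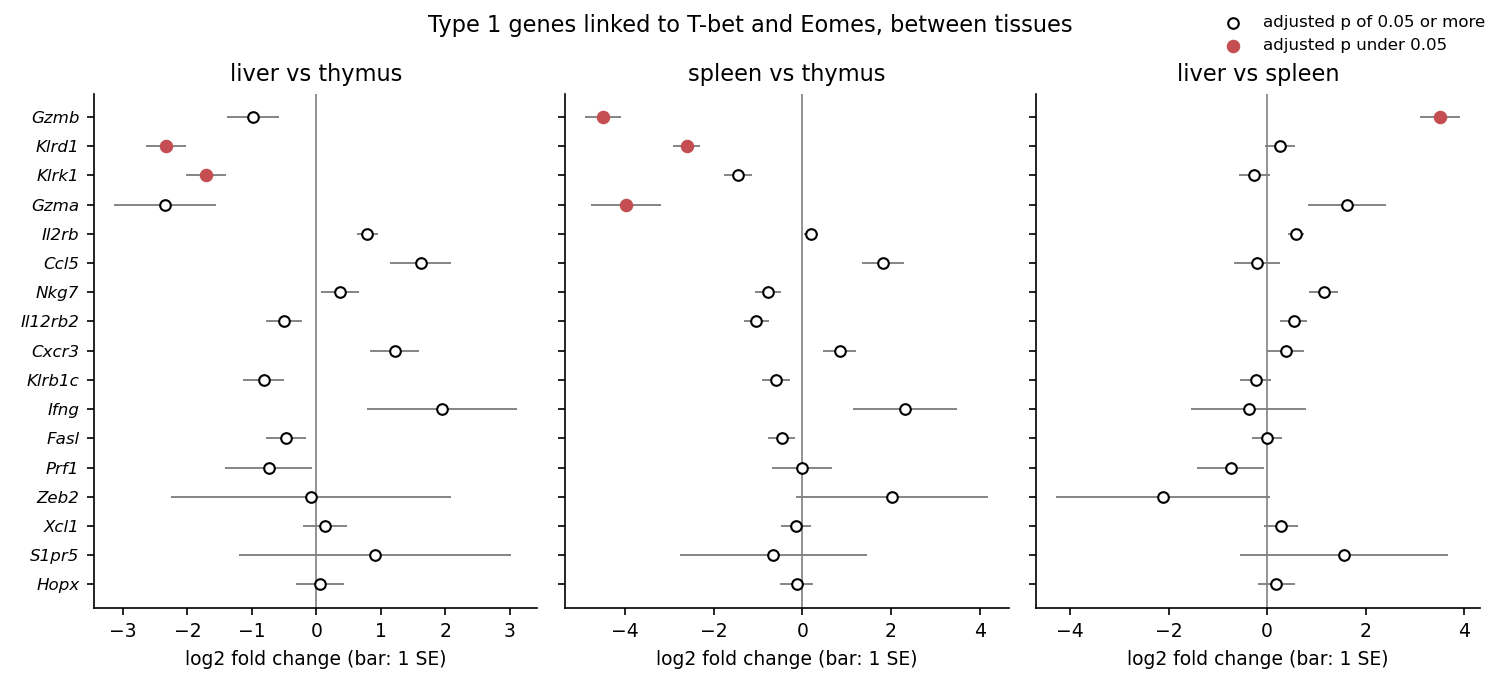
Log2 fold change (points, with 1 SE) of the 17 type 1 genes tested in the 3 comparisons; filled points have an adjusted p under 0.05. Klrd1 and Klrk1 lie to the left in liver vs thymus, Gzmb, Klrd1 and Gzma in spleen vs thymus, and Gzmb to the right in liver vs spleen.

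For the CD4 and CD8 circuit in which Runx3 and ThPOK oppose each other, 14 genes were tested and 1 passed in each comparison with thymus. Itgae, the integrin chain CD103 that RUNX3 is known to support, was 6591, 3586 and 7786 in thymus, 381.9, 26.6 and 13.1 in liver, and 58.1, 35.0 and 22.1 in spleen. The change was -6.75 for liver vs thymus and -7.28 for spleen vs thymus on the log2 scale (adjusted p = 0.0261 and 0.0146 by limma). The liver call was lost without any 1 thymus library or liver replicate 2 or 3 (adjusted p up to 0.158) and with edgeR (adjusted p = 0.0612), and the spleen call without any 1 spleen library (up to 0.079). At an unadjusted p under 0.05 by limma the list had 4, 5 and 1 of 14, against 11.6%, 11.7% and 3.03% of all genes. Medians of the list were -0.01, -0.31 and 0.02, beside 0.29, 0.33 and -0.02 for all genes. Cd4, which ThPOK keeps on and RUNX3 silences, was 985.3 to 7393 in thymus, 6440.2 to 7921 in liver and 5468 to 10054 in spleen. Cbfb, the gene of CBFβ, the partner of both RUNX proteins, was 4463 to 6660 in thymus, 3542 to 4882 in liver and 3773 to 5164 in spleen. Runx2, the third member of the family, was 105.5 to 893.5 over all libraries.

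No gene passed in the 4 other lists or among the relatives. Their counts at an unadjusted p under 0.05 stand beside 11.6% (liver vs thymus), 11.7% (spleen vs thymus) and 3.03% (liver vs spleen) of all genes. For GATA3-linked type 2 genes 8 of 10 were tested, with 0 called in the 3 comparisons and 1, 0 and 1 at an unadjusted p under 0.05. Icos, a costimulatory receptor, was 6338 to 10391 in thymus, 4489 to 6104 in liver and 8985 to 10685 in spleen, and Il4ra, the IL-4 receptor chain, 648.1 to 1470 in thymus, 1492 to 2673 in liver and 1192 to 2110 in spleen. For iNKT17 genes 6 of 11 were tested, with 0 called and 2, 1 and 2 at an unadjusted p under 0.05. Tmem176b was at most 82.8 in thymus, 616.2 to 2707 in liver and 3.4 to 578.8 in spleen (adjusted p = 0.198 for liver vs thymus by limma).

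Among 18 regulators of iNKT development 17 were tested, with 0 called and 4, 4 and 2 at an unadjusted p under 0.05 (all genes: 11.6%, 11.7% and 3.03%). Bhlhe40, a cofactor of T-bet, was 1272 to 2901 in thymus, 4310.0 to 6008 in liver and 3139 to 4513 in spleen (adjusted p = 0.155 for liver vs thymus by limma). Zfp683, the gene of HOBIT, was 7152 to 12116 in thymus, 10663 to 12952 in liver and 4376 to 7308 in spleen. Of the 10 protein partners and cofactors 9 were tested, with 0 called and 2, 2 and 0 at an unadjusted p under 0.05. Tle4, a corepressor that RUNX proteins recruit, was 4424 to 12100.0 in thymus, 2321 to 3149 in liver and 2647 to 3979 in spleen. Its relative Tle3 was 94.2 to 2265 in thymus, 1285 to 2775 in liver and 1624 to 3043 in spleen. The 39 further genes named Tbx, Gata, Runx or Zbtb had 0 called and 3, 3 and 1 at an unadjusted p under 0.05; 2 of them, Runx2os2 and Zbtb8os, are opposite-strand genes and not family members.

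The genes most like each factor were found by the root mean square difference of log2(value + 1), each gene centred on its own mean, over the 9 libraries and 8947 genes with a mean of at least 100. For Runx3 these were Arid4b (0.206) and Rap1gds1 (0.212), and for Runx1 Cd47 (0.257) and Dut (0.268). Tbx21 was closest to Azin1 (0.23) and Tbc1d13 (0.243), and Gata3 to Fam49a (0.187) and Rbm8a (0.236). Nearest to Zbtb16 were Pbxip1 (0.238) and Ehmt2 (0.252), and nearest to Zbtb7b Arhgap35 (0.289) and Myo18a (0.292). Eomes, with a mean of 47.65, is itself below the floor of 100, so genes as low as Eomes were not candidates. Its nearest candidates were Igkv17-121 (1.619) and Gpaa1 (1.768), and nothing is read from how far they lie. Igkv17-121, an antibody light chain segment, was 2376 in liver replicate 1 and at most 1.3 elsewhere. These distances are a description and carry no test.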

How the data were processed

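RNA-seq of iNKT1 cells (3 libraries per tissue) was analysed from 1 table of the deposited values, signal in the form of normalised read counts that the authors made. Per the submitters' processing notes, Trimmomatic 0.33, TopHat2 2.1.0, HTSeq 0.6.1, edgeR and build mm10 were used; the scaling and strandedness are not given in the sources used here. Small values are multiples of 1 step per library, and of 15737 values of at most 20 reads 93.1% came within 0.1 reads of a whole number (71.1% in liver replicate 3), so reads were recovered for count tests as an alternative; the closing section gives how many genes these call. Symbols matched 13359 of 14004 identifiers. No per-sample column was left out. limma 3.58.1 in R 4.3.3 was fitted to log2(value + 1) for the 13309 genes that reached 1 in 3 or more samples, all 9 samples, a term per tissue, two-sided tests. Alternatives were scaling, filter, pseudocount, weights, a replicate block, a term for high Xist, edgeR 4.0.16, DESeq2 1.42.0 and each library left out. The procedure was tested on simulated data. The genes changed there rose in liver by more than the changes fitted for Runx1 and Runx3, so that test does not cover changes of their size. The 7 genes, the lists and the tests were chosen with earlier results of these data known. Named were all 7, up to 4 genes per list past the threshold by F-test p (the leading 2 where none passed), and the 2 most alike genes per factor; Il2rb, Ifng, Cd4, Cbfb and Runx2 were chosen for their known role after their values were seen. 1 gene that the rule names is not reported here. Exon lengths and positions came from GENCODE M21.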

Additional observations from a re-analysis of the deposited data

How the results depend on the processing

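The count of factors called was 0 under every alternative run in the 3 comparisons and the F-test, with fewer alternatives for Eomes, which a stricter filter and some fits left out. Of 451 fold changes of the factors under alternatives, 431 kept their direction and 20 did not; 0 passed the threshold. Reversed were Tbx21 in liver vs thymus (-0.16 with TMM factors, -0.12 with edgeR, -0.16 with DESeq2), Eomes in liver vs thymus (-0.72 with array weights), Zbtb16 in spleen vs thymus (0.09 with equal library totals) and Runx3 in liver vs spleen (-0.01 with equal totals, array weights and edgeR, 0 with DESeq2); the cause was not tested. Leaving out 1 library gave -0.29 to 0.73 for Tbx21, -0.42 to 3.9 for Eomes and -0.75 to 0.14 for Gata3 in liver vs thymus, 0 to 1.02 for Tbx21 and -0.38 to 0.12 for Zbtb16 in spleen vs thymus, and -0.39 to 0.12 for Runx1 and -0.31 to 0.2 for Runx3 in liver vs spleen. Over all genes, limma called 43, 53 and 2 in liver vs thymus, spleen vs thymus and liver vs spleen, edgeR 17, 32 and 2, and DESeq2 455, 512 and 22. Same-numbered libraries correlated at -0.001 to 0.089, and other pairs at -0.087 to 0.048. By that measure 4 of 9 libraries were closest to their own number in both other tissues, a hint from the data that the labels do not explain. High Xist also went with the same replicate number in every tissue. Whether same-numbered libraries are paired cannot be decided from these values. With the replicate block 0 factors were called, and all-gene counts were 42, 55 and 4. For the 5 ratios the block first takes away the mean of each replicate number. Its between-tissue shares are of what remains, so they cannot be set beside the shares of the total given above. They were 36.3% (Tbx21/Eomes), 38.1% (Tbx21/Gata3), 37.6% (Tbx21/Zbtb16), 93.1% (Runx3/Runx1, adjusted p = 0.417 by exact permutation test) and 4.4% (Runx3/Zbtb7b). The permutation test with the block moves tissue labels only within a replicate number, which allows fewer arrangements than the 280 partitions used above. Its smallest possible p is thus above 0.00357, and nothing is read from its adjusted p. Liver replicate 3, at 3880153 reads, limits the low genes most.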
